A study of Arabidopsis thaliana with 8 samples.

Results

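The response of wild-type (WT) Arabidopsis thaliana to abscisic acid (ABA) was measured on 4 of the 8 arrays of the series, chosen because their genotype label is wild type. They were 2 arrays of WT plants under ABA and 2 arrays of WT plants given water, all of the Columbia background. The plants were 4 weeks old, were grown in soil in long days, and received 10 µM ABA or water for 3 h. Whole plants, root and shoot together, were pooled for each treatment before RNA extraction, and the design text calls the 2 replicates independent experiments with different plants. The other 4 arrays held plants that overexpress ThbZIP1, a bZIP transcription factor gene of the salt-tolerant shrub Tamarix hispida, as T3 homozygous lines (OE), 2 under ABA and 2 in water. They enter here through the shared estimate of the spread and through the test of whether the response differs with genotype. A second label field names other material for the same arrays (an insertion line in water for the WT water arrays, and salt-treated seedlings of another line for the WT ABA arrays), whereas title, source, genotype and treatment labels give the groups used here.

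ABA is a hormone of drought and of seed dormancy. It is bound by PYR/PYL receptors, which then hold back clade A PP2C phosphatases, and SnRK2 kinases freed from these phosphatases phosphorylate bZIP factors that switch on genes with ABA-responsive elements. Many of those genes encode LEA proteins, dehydrins and other proteins of dry seeds and stressed leaves. PP2C genes are themselves known targets of the hormone, which closes a negative feedback loop, and ABA is removed by CYP707A hydroxylases.

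Each value below is the processed signal of 1 probe on a log2 scale, set to 0 at the 75th percentile of its array, so a value of 1 is a signal 2 times that percentile. A difference was called where the Benjamini-Hochberg adjusted p over all 31267 probes tested was under 0.05 in limma and the fold was at least 2. Probes entered the test if both arrays of 1 or more of the 4 groups had a signal well above background. By this rule 172 probes were higher and 79 were lower under ABA in WT, which is 0.55% and 0.253% of the probes tested (0.803% in either direction). They stood for 129 and 56 loci, and 36 of the 251 probes matched no locus. At an unadjusted p under 0.05 with the same fold, 1049 probes (3.35%) were higher and 764 (2.44%) lower. The calls depended on the spread shared with the OE arrays and on the background correction. With the 4 WT arrays fitted alone limma called 0 probes (1812 at an unadjusted p under 0.05), and with normexp background correction it called 28. With 1 probe taken for each of 19476 genes, 113 genes (0.58%) were higher and 51 (0.262%) were lower. The fitted log2 fold changes of called probes, some of them with 1 group at background, ran between 1.05 and 6.46 for those higher and between -1.01 and -7.88 for those lower, and 27 probes were higher by at least 4 on the log2 scale, against 4 that were lower by as much.

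The 2 arrays of a group correlated at 0.985 under ABA and 0.971 in water over the probes. Both water arrays lay on 1 slide and the 2 ABA arrays on 2 others, so no slide held both WT groups and slide and treatment cannot be told apart. The ABA arrays were brighter before scaling, with 75th percentiles of 1694 and 1590 against 1229 and 1083 in water. The first water array had 1148 spots marked as outliers by the scanner software, against 6 to 24 on the other 7 arrays, and these spots were left out. As a measure of how much the arrays differ beyond single genes, both ABA arrays lay above both water arrays for 20.3% of the probes tested and below both for 28.9%. Photosystem and Rubisco genes, which mark green tissue, passed the filter for 38 of 38 genes. Of the root markers 4 of 8 passed it, with summed normalised signals of 1.76 and 1.70 under ABA and 1.84 and 1.65 in water. No seed storage marker of 6 passed it. Of 7 flower markers tested, 5 were at least 2-fold higher on the first water array than on the second, and their summed signal was 0.120 and 0.108 under ABA against 0.395 and 0.0890 in water. Their part in the results was not tested. All 5 guard cell markers were tested and none of the root, flower or guard cell markers was called. In pooled whole plants fewer cells of a type and less RNA per cell cannot be told apart.

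The receptor genes fell or showed no call. Of 14 receptor genes 9 were tested, 3 were lower under ABA and none was higher, against 0.262% of all genes lower. The median log2 fold change of the 9 was -0.79, against -0.05 over all genes. PYL4 read -3.07 and -2.74 under ABA, against 0.13 and 0.42 in water, a log2 fold change of -3.17 ± 0.20 (SE, n = 2 each, limma adjusted p = 0.0107). PYL5 read -1.84 and -1.27 under ABA, against 1.08 and 1.17 in water (log2 fold change -2.68, adjusted p = 0.0180). Of its 3 probes tested a second, at -2.82, was also called and the third was not. PYL6 read -7.44 and -6.23 under ABA, where only 1 array was above background, against -2.30 and -1.80 in water (log2 fold change -4.78, adjusted p = 0.0197). The groups did not overlap for any of these genes, which code for receptors that act as monomers. None of these calls was kept with normexp background correction. Of the 9 receptor genes, 7 (77.8%) had both ABA arrays below both water arrays, against 30.7% of all genes. PYR1, a dimeric receptor, read 2.21 and 2.22 under ABA and 3.06 and 3.09 in water, a difference of -0.86 that did not pass (adjusted p = 0.132). PYL9 was the only receptor gene tested with a positive log2 fold change, of 0.52 (adjusted p = 0.415).

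The phosphatase genes moved the other way. Of 9 clade A PP2C genes 7 were tested, 5 were higher and none was lower, against 0.58% of all genes higher. The median log2 fold change was 2.67. HAI1, a highly ABA-induced PP2C gene, read 2.56 and 2.75 under ABA, against -3.06 and -3.89 in water, and its log2 fold change of 6.13 ± 0.48 (SE, n = 2 each, limma adjusted p = 0.0122) was the largest among called probes above background on all 4 arrays. ABI2, first found through an ABA-insensitive mutant, read 1.52 and 1.58 under ABA and -1.23 and -1.41 in water (log2 fold change 2.87, adjusted p = 0.0107). HAB1, a close relative, read 1.25 and 1.58 under ABA and -1.13 and -1.36 in water (log2 fold change 2.67, adjusted p = 0.0107). The arrays of these genes stood apart by more than 2 log2 units between groups and by less than 1 within a group. PP2CA rose by 2.23 and ABI1 by 1.72 on the log2 scale (adjusted p = 0.0307 and 0.0242). HAI2 read -0.08 and -0.18 under ABA, against -3.34 and -5.63 in water, and its difference of 4.36 missed the threshold (adjusted p = 0.0643) beside the wide spread of the water arrays. HAB2 differed by 0.80 (adjusted p = 0.0686). All 7 had both ABA arrays above both water arrays, against 20.3% of all genes. Leaving out 1 of the 8 arrays at a time left 2 to 6 calls, fewest without the second ABA array.

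None of 10 SnRK2 kinase genes was called, and their median log2 fold change was -0.15. The largest differences were 1.70 for SNRK2.7 (adjusted p = 0.183) and -0.81 for SNRK2.3 (adjusted p = 0.153), 1 of the kinases with a central part in ABA signalling. OST1, the guard cell kinase, read -4.50 and -4.71 under ABA and -5.25 and -5.45 in water (adjusted p = 0.248). Here the transcripts of the kinase genes gave no difference that passed the test, at a median SE over all probes of 0.22.

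Of 12 genes for group A bZIP factors and the AFP proteins that bind them, 4 were higher and none was lower, with a median of 0.76. Of all genes 0.58% were higher. AFP1, which binds ABI5 and lowers its level, read 1.3 and 1.76 under ABA, against -2.38 and -2.60 in water, and its log2 fold change of 4.02 ± 0.20 (SE, n = 2 each) had the adjusted p of 0.00726. AFP3 rose by 2.13 (adjusted p = 0.0299). ABF3, a factor that binds ABA-responsive elements, read 2.71 and 2.83 under ABA and 0.42 on the second water array, its spot on the first having been dropped as an outlier (log2 fold change 2.35, adjusted p = 0.0261). ABF2 read 1.49 and 1.58 under ABA and 0.27 and -0.12 in water (log2 fold change 1.46, adjusted p = 0.0302). ABF4 and ABF1, of the same clade, differed by -0.14 and 0.25 and did not pass. ABI5, known for its part in seed germination, read -2.07 and -2.38 under ABA and -5.08 and -5.64 in water, and its difference of 3.13 missed the threshold (adjusted p = 0.0971).

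**Figure D1:**
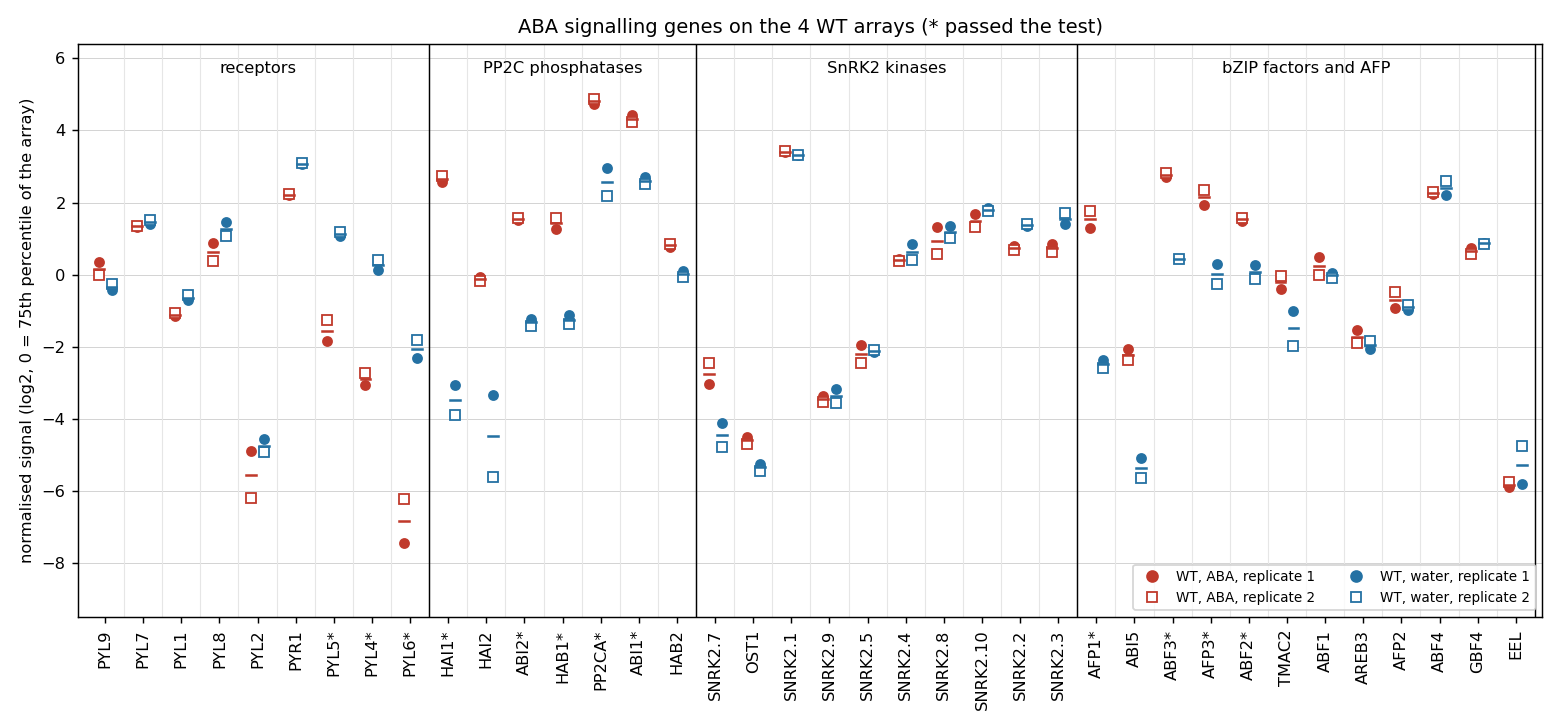
Normalised signal (log2, 0 at the 75th percentile of each array) of the ABA receptor, PP2C, SnRK2 and bZIP/AFP genes on the 4 WT arrays, with red points for ABA to the left of blue points for water, a circle for replicate 1, a square for replicate 2, and a bar at each group's mean. An asterisk marks genes that passed the test: 3 receptors lie lower under ABA, 5 PP2C and 4 bZIP or AFP genes lie higher, and no kinase was called.

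Genes that make ABA showed no call. None of 7 synthesis genes passed, with a median of 0.37, and NCED3, the stress-induced rate-limiting dioxygenase, read -2.42 and -2.55 under ABA and -1.42 and -2.21 in water (log2 fold change -0.67, adjusted p = 0.362). Among 9 genes of catabolism, conjugation and transport, 1 was higher, against 0.58% of all genes. That gene, CYP707A2, a hydroxylase that breaks down ABA, read 0.48 and 0.90 under ABA and -2.12 and -2.60 in water (log2 fold change 3.06 ± 0.40, SE, n = 2 each, limma adjusted p = 0.0390). CYP707A4 and CYP707A1 differed by 3.39 and 2.26 and did not pass (adjusted p = 0.150 and 0.146).

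The effector genes, which encode the protective proteins of the response, were called in part. Of 34 ABA-induced effectors tested, 6 were higher under ABA and none was lower, against 0.58% of all genes higher. At an unadjusted limma p under 0.05 with the same fold, 16 were higher, against 665 of 19476 genes. The median log2 fold change of the 34 was 1.02. Both ABA arrays lay above both water arrays for 20 of the 34 (58.8%, against 20.3% of all genes). TSPO, a stress-induced membrane protein that binds heme, read 0.97 and 1.73 under ABA, against -4.61 and -4.07 in water, and its log2 fold change was 5.70 ± 0.45 (SE, n = 2 each, limma adjusted p = 0.0122), with 5.42 at its second probe. AT2G47780, the next protein-coding gene along the chromosome in the TAIR10.1 annotation, read 1.77 and 2.91 under ABA and -1.96 and -3.43 in water (log2 fold change 5.03, adjusted p = 0.0314). LEA4-5, a LEA protein gene, read -2.63 and -2.39 under ABA and -7.46 and -5.81 in water, where only the second array was above background (log2 fold change 4.13, adjusted p = 0.0426).

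The other called effectors had no water array above background, so the fold is given as a lower bound at the main background treatment. The bound sets the mean of both ABA arrays against the higher, on each water array, of the dimmest signal well above background and the probe's own. RD29B (LTI65), whose promoter is a standard ABA reporter, read -3.02 and -3.13 under ABA and -8.59 and -8.06 in water, at least 11.9-fold higher under ABA (adjusted p = 0.0150). HVA22B was at least 10.5-fold higher (adjusted p = 0.0158). EM6 (GEA6), a LEA gene of late seed development, read -4.55 and -3.96 under ABA and -7.37 and -7.20 in water, at least 5.27-fold higher (adjusted p = 0.0122). These seed and stress genes were thus measured above background only on ABA arrays in WT. Every bound given here and below, in either direction, holds for the main processing alone. Among the alternatives the log2 fold change fell as low as 1.55 for RD29B, 1.31 for HVA22B and 0.62 for EM6.

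Several effectors widely used as ABA markers were not called in WT. LEA7 (AT1G52690) read 0.88 and 0.59 under ABA against -8.23 and -4.35 in water, where only the second array was above background, and missed the threshold (adjusted p = 0.0775). RAB18, a dehydrin, read 3.84 and 2.63 under ABA and 1.75 and 0.68 in water (log2 fold change 2.02, adjusted p = 0.163). RD29A (LTI78) read 3.81 and 4.15 under ABA and 3.66 and 0.66 in water, so that the first water array was close to the ABA arrays and far above the second (adjusted p = 0.407). COR15A, a cold-induced chloroplast protein gene, read 3.23 and 2.94 under ABA and 3.99 and 1.97 in water, with the ABA arrays inside the range of the water arrays (log2 fold change 0.10, adjusted p = 0.959). KIN2 differed by 0.63, with 6.60 and 6.89 under ABA and 7.0 and 5.23 in water. Of the 32 effectors with a value on both water arrays, 13 were at least 2-fold higher on the first than on the second and 3 were at least 2-fold lower, whereas over all genes these counts were 1237 and 434 of 18704. Without the first water array 9 effectors were called and the median log2 fold change was 1.67, and without the second 8 were called and the median was 0.34. Of the same 34 genes, 21 were called higher in OE plants, where 332 of all 19476 genes were higher, against 113 in WT.

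**Figure D2:**
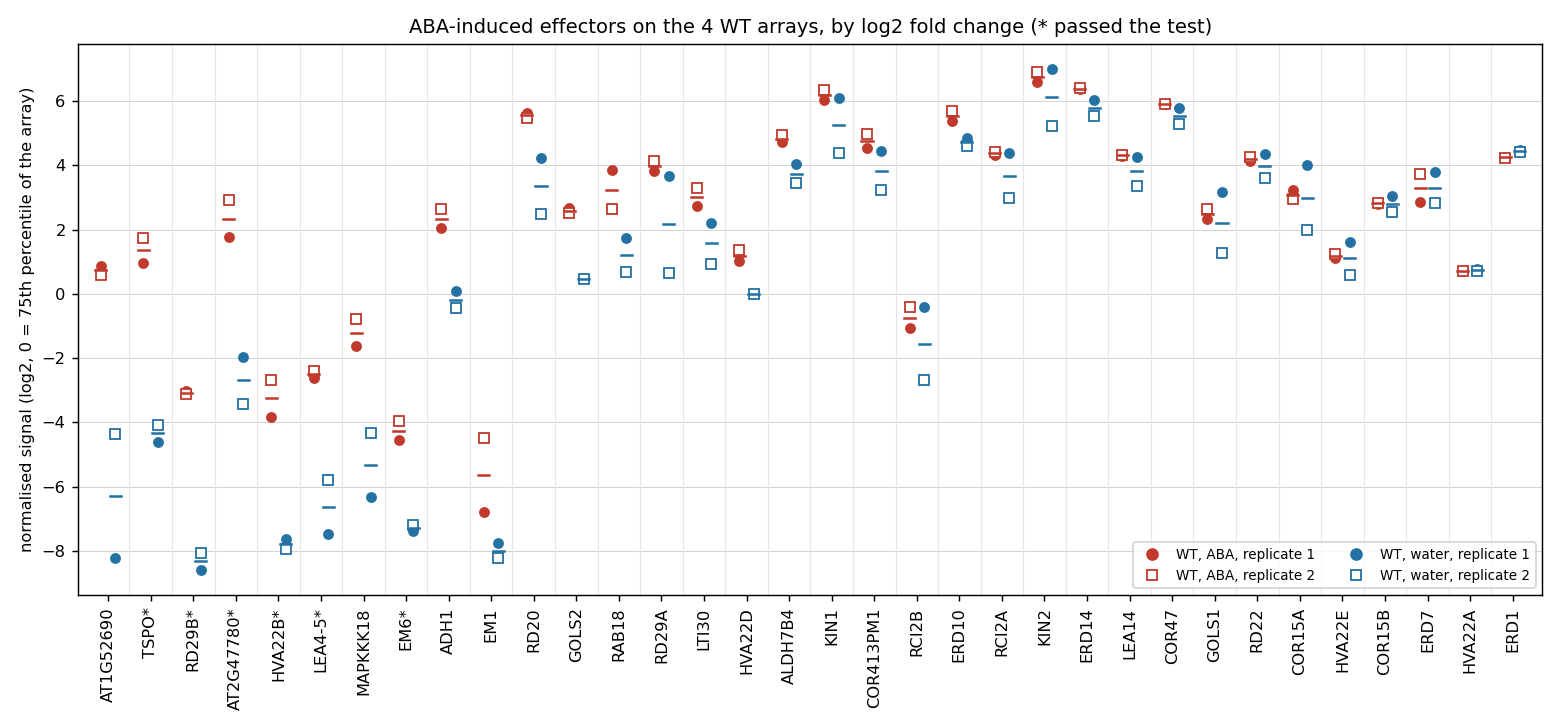
Normalised signal (log2, 0 at the 75th percentile of each array) of the 34 ABA-induced effectors on the 4 WT arrays, ordered by log2 fold change, with red points for ABA left of blue points for water, a circle for replicate 1, a square for replicate 2 and a bar at each mean. The 6 genes with an asterisk passed the test, and from RD20 rightwards the circle for the first water array often lies near the ABA points while the square for the second lies below.

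Regulators further down the pathway rose in part. Of 15 ABA-responsive NAC, MYB and HD-ZIP factor genes 4 were higher and none was lower, with a median of 1.12. Of all genes 0.58% were higher. HB-7 read 2.69 and 2.75 under ABA, against 0.15 and -0.32 in water (log2 fold change 2.8 ± 0.19, SE, n = 2 each, limma adjusted p = 0.0107), and HB-12 read 4.26 and 4.14, against 1.69 and 1.15 in water (2.78, adjusted p = 0.0109). Both are class I HD-ZIP factors that damp growth and ABA signalling. NAC019 and MYB2 rose by 2.04 and 1.51 (adjusted p = 0.0358 each). RD26, a NAC factor of senescence and drought, read 3.43 and 4.03 under ABA and 2.95 and 2.11 in water, a difference of 1.2 that did not pass (adjusted p = 0.160). Of 10 CBF, DREB2 and TINY factors 2 were higher, DREB1A (CBF3) by 2.37 (adjusted p = 0.0151) and TINY2 by 2.23 (adjusted p = 0.0358), while DREB2A and DREB2B of the drought branch differed by 0.31 and 0.15. With any 1 of the 8 arrays left out, 0 or 1 of these calls was made, none without either OE water array.

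Of 17 heat shock factors and proteins 2 were higher, against 0.58% of all genes. HSFA6B read -3.70 and -2.28 under ABA and -8.60 and -8.89 in water, at least 12.6-fold higher (adjusted p = 0.0142), and HSFA6A read -2.66 and -2.65 under ABA and -7.11 and -8.65 in water, at least 16.0-fold higher (adjusted p = 0.0335). Neither was above background in water. The chaperone genes HSP90.1 and HSP70 differed by -0.58 and -0.47 and did not pass, and the median of the list was -0.02, so the calls were for the pair of ABA-linked factors and for no chaperone. With 1 array left out, 0 to 3 of the list were higher and 0 or 1 lower, none without either OE water array.

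Of the genes named for the size of their change, several are regulators. LBD1, a LOB domain factor, read -0.31 and -0.03 under ABA, against -4.23 and -4.08 in water (log2 fold change 3.98 ± 0.25, SE, n = 2 each, limma adjusted p = 0.0107). BBX30, a B-box microprotein of light signalling, read -0.09 and 0.30 under ABA, against -3.65 and -3.94 in water (log2 fold change 3.90, adjusted p = 0.0107). PUB19, a U-box ubiquitin ligase that restrains ABA and drought responses, read -0.17 and -0.04 under ABA and -3.29 and -4.24 in water (log2 fold change 3.66, adjusted p = 0.0151). Groups stayed at least 3 log2 units apart for each of the 3. NIG1, a salt-inducible bHLH factor, rose by 3.75 (adjusted p = 0.0426) and DIP2 by the same amount (adjusted p = 0.0197). AT1G60590, AT5G50360, AT3G48240, AT2G41190 and AT1G29640, which carry no name in the annotation, rose by 4.16, 3.93, 3.79, 3.67 and 3.67.

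Of the genes above background only under ABA, the largest bounds were at least 25.3-fold for AT3G48510, 20.4-fold for AT3G17520, 16.0-fold for HSFA6A, 14.8-fold for MYB121 and 13.1-fold for NF-YB5, a subunit of a CCAAT-binding complex. AT3G17520 read -2.67 and -1.93 under ABA and -8.62 and -8.89 in water (adjusted p = 0.0118). MYB121 read -3.66 and -1.86 under ABA and -8.68 and -8.89 in water (adjusted p = 0.0158). In all, 42 of the 172 higher probes were above background on neither water array.

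The genes that fell formed a shorter list. BT2, a BTB-TAZ protein gene tied to nitrate and sugar responses, read 1.09 and 0.39 under ABA, against 4.4 and 4.74 in water (log2 fold change -3.83 ± 0.33, SE, n = 2 each, limma adjusted p = 0.0148), with -3.45 at its second probe. HB4, HB-2 and HAT1 are class II HD-ZIP factors and PIL1 a bHLH factor, and all are known as early shade-response genes. HB4 read -5.29 and -5.26 under ABA and -1.82 and -1.23 in water (log2 fold change -3.75, adjusted p = 0.0322), while a brighter probe of the gene, at -4.06 with its spot on the first water array dropped, was not called. PIL1 read -3.19 and -3.74 under ABA and -0.04 and -0.73 in water (log2 fold change -3.08, adjusted p = 0.0180). HB-2 read 0.12 and -0.13 under ABA and 2.5 and 2.63 in water (log2 fold change -2.57, adjusted p = 0.0122), and HAT1 read -1.64 and -1.96 under ABA and 0.71 and 0.74 in water (-2.53, adjusted p = 0.0109).

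AT5G62360, without a name in the annotation, was lower at each of its 4 probes, and the brightest read -1.38 and -1.82 under ABA against 1.69 and 2.13 in water (log2 fold change -3.51, adjusted p = 0.0109). LBD38, a repressor of nitrate and anthocyanin genes, fell by 2.44 on the log2 scale (adjusted p = 0.0441), AT4G21870 by 2.61 (adjusted p = 0.0316) and AT1G02350 by 2.38 (adjusted p = 0.0201). AT3G46880, LBD22, AT1G15540, AT3G50200 and AT5G22810 were above background only in water, lower under ABA by at least 6.12-, 3.48-, 3.46-, 3.07- and 2.51-fold. DIR5, a dirigent protein gene singled out after its values were seen, had a fitted log2 fold change of -7.88 (limma adjusted p = 0.00726), with -6.90 and -6.27 under ABA, where only 1 array was above background, against 1.54 and 1.06 in water. On OE arrays it averaged -7.73 under ABA and -8.52 in water, with no array above background, so that it was bright only on the WT water arrays, the pair that shares a slide.

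Most other pathways gave no call in WT. Starch and sugar starvation genes gave 1 call of 24, BT2 itself, with DIN10 at -2.03 (adjusted p = 0.123). Cell wall loosening genes gave 1 of 21, the endotransglucosylase XTH30, at -1.69 (adjusted p = 0.0379). Both calls were lower, as were 0.262% of all genes. Among 11 genes of proline and raffinose metabolism, P5CS1, the ABA-induced enzyme of proline synthesis, read 2.73 and 2.5 under ABA and 0.76 and -0.34 in water and missed the threshold (log2 fold change 2.41, adjusted p = 0.0576). No call was made among 18 flavonoid genes (median 0.59), 22 glucosinolate genes (median -0.65, with non-overlapping lower values for 63.6%, against 30.7% of all genes), 26 jasmonate genes (median 0.00), 19 salicylic acid genes, 17 ethylene response factor and defensin genes, 52 WRKY factors (median -0.19), 24 cell cycle genes (median 0.50), 21 aquaporins and 66 ribosomal protein genes (median -0.01). The jasmonate markers showed the spread of the water arrays again, VSP2 reading 3.12 and 3.58 under ABA against 4.71 and -0.54 in water. At least 2-fold higher on the first water array than on the second were 10 of 18 flavonoid genes. The reverse held for 11 of 16 ethylene response factor and defensin genes. At an unadjusted limma p under 0.05 with the same fold, 5 flavonoid genes were higher, against 665 of 19476 genes.

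Genes that follow the state of the plant gave no call either. Of 38 photosystem and Rubisco genes none was called, although 22 had both ABA arrays below both water arrays (57.9%, against 30.7% of all genes), and their median was -0.17. That offset relative to all genes changed sign among the scalings tried, between -0.13 and 0.07. Of 10 clock genes with a morning peak none was called, with a median of 0.54 and 60.0% higher without overlap against 20.3% of all genes, LHY reading 1.32 and 1.37 under ABA and 0.50 and 0.31 in water (adjusted p = 0.112). Of 14 clock genes with a day or evening peak, 7 were lower and 3 (21.4%) higher without overlap, against 30.7% and 20.3% of all genes, with a median of -0.19, and PRR9 differed by 1.58 (adjusted p = 0.114). The 11 reference genes lay between -0.42 and -0.05.

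**Figure D3:**
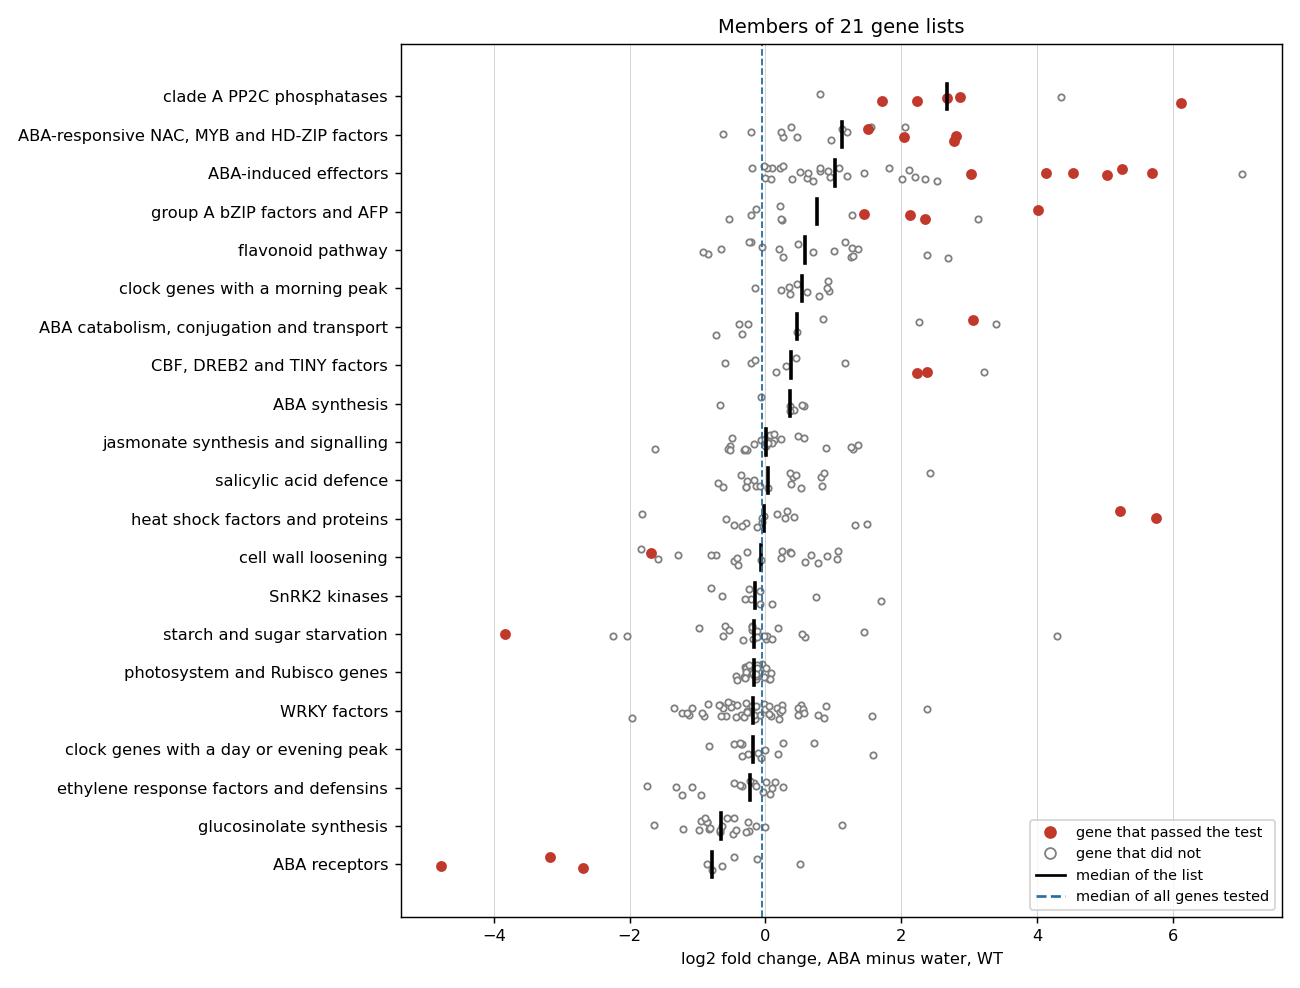
Log2 fold change, ABA minus water in WT, of each tested gene of 21 lists (1 probe a gene), with a filled red point for a gene that passed the test, an open grey point for 1 that did not, a black bar at the median of the list and a dashed line at the median of all genes (-0.05). PP2C genes have the highest median (2.67) and ABA receptors the lowest (-0.79), and no point is filled in the flavonoid, clock, jasmonate, WRKY, photosystem or glucosinolate lists.

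Calls were spread unevenly over dim and bright probes. The tested probes were ranked by mean signal over the 4 WT arrays and divided into 10 bins of 3126 or 3127. In the dimmest bin 46 probes were higher and 14 lower (1.92% called), and in the brightest 7 were higher and 7 lower (0.448%). The share of probes with a difference of at least 2-fold was 23.4% in the dimmest bin and 4.35% in the brightest, and of those probes 8.19% and 10.3% were called. The share of such probes that was called was highest in the seventh bin, at 20.9%. Dim calls were also large, with a median absolute log2 fold change of 3.48 in the dimmest bin and 1.94 in the brightest. The share of probes at least 2-fold apart depended on the background correction. With normexp it was 2.17% in the dimmest bin and 4.19% in the brightest, so the order of the bins turned.

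The spread was widest among dim probes. The median SD between the 2 arrays of a group was 0.319 under ABA and 0.353 in water in the dimmest bin, and 0.123 and 0.134 in the brightest, and it was larger in water in every bin. In the dimmest bin 27.2% of the probes were above background in only 1 of the WT groups or in neither. The median log2 fold change moved by bin from 0.03 in the dimmest to -0.10 in the brightest, and this slope depended on the processing, since normexp gave -0.32 and -0.08, quantile normalisation -0.16 and -0.02, and scaling by the array median -0.13 and -0.25. With normexp no probe of the dimmest bin was called and 2 of the brightest were, against 7 higher and 7 lower there in the main fit. The 12336 probes left out as dim had a median of 0.17, 13.2% of them differed by at least 2-fold, and 5 were called when all were kept.

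**Figure D4:**
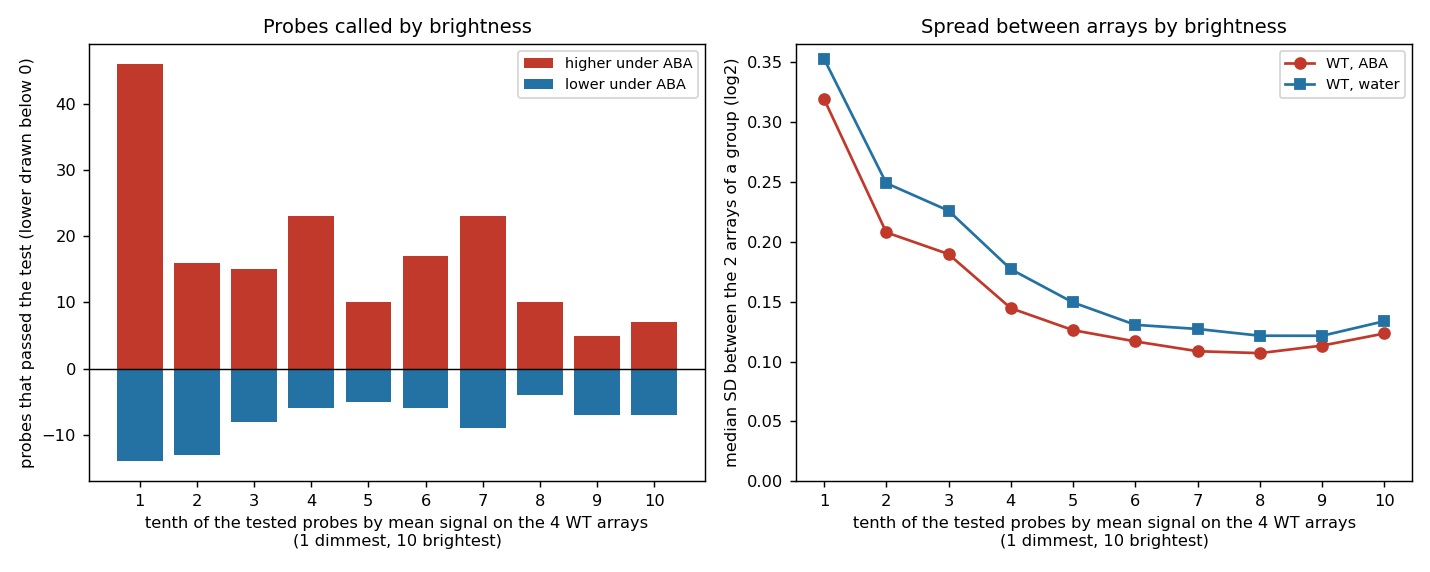
Left, number of probes that passed the test in each of 10 bins of the tested probes by mean signal, with those higher under ABA in red above 0 and those lower in blue below 0. Right, median SD between the 2 arrays of a group (log2) in the same bins, red circles for ABA and blue squares for water. The dimmest bin holds 46 higher and 14 lower probes and the widest spread (0.319 and 0.353).

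Whether the response was particular to WT was tested by the interaction of genotype and treatment. No probe passed limma's adjusted threshold (0% of 31267, lowest adjusted p = 0.0953), while 2027 (6.48%) had an unadjusted p under 0.05 and a difference of at least 2-fold. In OE plants the same contrast called 530 probes higher (1.7%) and 109 lower (0.349%), 2.04% in all. Of the 172 probes higher in WT, 162 had the same sign in OE and 119 (69.2%) were called higher there, and their median log2 fold change was 2.42 in WT and 2.35 in OE. Of the 79 probes lower in WT, 55 had the same sign in OE and 11 (13.9%) were called lower, with medians of -2.11 in WT and -0.24 in OE. Since the probes were chosen by their change in WT, these medians are a description and are not set against each other by a test.

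Core genes varied in how near their changes were in the 2 genotypes. HAI1 had a log2 fold change of 6.13 in WT and 6.0 in OE, ABI2 of 2.87 and 2.81, and HB-7 of 2.8 and 3.05. AFP3 had 2.13 in WT and 4.0 in OE, and NAC019 2.04 and 4.0, and the median fitted change of the 34 effectors was 1.02 in WT and 2.44 in OE. TSPO, MYB2 and PUB19 were not above background on the OE water arrays. AFP1 had 4.02 in WT and 6.06 in OE at its brighter probe (limma interaction adjusted p = 0.129). Its dimmer probe, above background on neither WT water array, went the other way, with a fitted 3.41 in WT and 1.74 in OE (interaction adjusted p = 0.298). BBX30 changed by 3.90 in WT and 0.38 in OE (interaction adjusted p = 0.0989). NCED3 had -0.67 in WT and 1.62 in OE (interaction adjusted p = 0.193). None of these differences passed the adjusted test.

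Several lower genes had small changes in OE, although no interaction passed the adjusted test and the genes were chosen by their fall in WT. BT2 had a log2 fold change of -3.83 in WT and -0.10 in OE, HB-2 of -2.57 and -0.10, and AT5G62360 of -3.51 and -0.08 at its brightest probe (interaction adjusted p = 0.118, 0.110 and 0.0953). For 55 of the 79 lower probes the OE mean in water was nearer to the WT mean under ABA than to the WT mean in water, whereas this held for 25 of the 172 higher probes. The OE arrays were scanned on another day, on another slide, and with another version of the array design than the WT arrays, so levels across genotypes cannot be told apart from these.

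**Figure D5:**
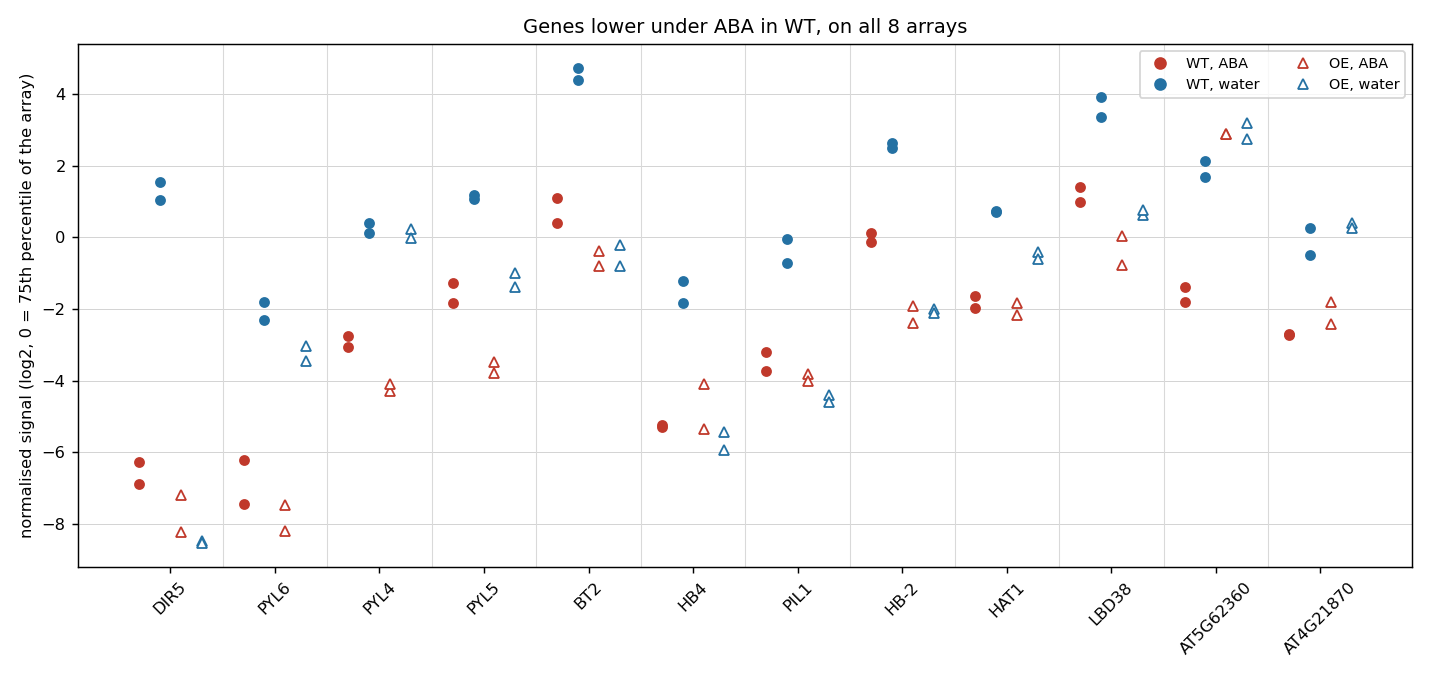
Normalised signal (log2, 0 at the 75th percentile of each array) of 12 genes lower under ABA in WT, on all 8 arrays, with circles for WT and open triangles for OE and with red for ABA left of blue for water. PYL6, PYL4, PYL5, HAT1 and AT4G21870 lie lower under ABA in both genotypes, whereas DIR5, BT2, HB4, PIL1 and HB-2 are high on the WT water arrays alone.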

How the data were processed

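The authors hybridised Cy3-labelled total RNA to 1-colour Agilent Arabidopsis arrays, 1 array a sample, and deposited scanner output with processed intensity values, background-corrected by Agilent's Feature Extraction. They also deposited a table of log2 values, which matched the scanner intensities array by array (lowest correlation 0.999) and was an alternative here. The methods name MAS 5.0 normalisation and Welch's test, called the methods' t-test below. The main values were log2 of the processed intensity minus each array's 75th percentile. Control spots and outlier spots were left out and spots of 1 probe averaged. Of 43603 gene probes, 34392 matched 1 locus of the RefSeq TAIR10.1 table, and 12336 dim probes were not tested. All 8 arrays entered 1 fit of 4 group means in limma 3.58.1 (R 4.3.3), with 4 residual degrees of freedom, so the spread of WT was estimated together with that of OE. A gene of a list was taken at the probe of highest mean signal over the 8 arrays. A log2 fold change is ABA minus water. On simulated data for this contrast (31267 probes, 100 changed by 1.5 and 100 by 3 on the log2 scale), 59% and 88% were called, with 12 unchanged probes called. The simulated noise was independent between arrays and held no slide or array effect, so these rates are not those of the real arrays.

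The named genes were list members, the 15 largest rises and 15 largest falls among called, non-overlapping probes with a locus and a signal above background on all 4 WT arrays, and the 5 largest bounds on each side. Members and lists were chosen with earlier results of these data known. The 2 arrays a group limit the precision. Replicate numbers did not pair the samples (correlation of the replicate differences of the WT groups, -0.179). The normexp alternative used the median signal and the median background. Alternatives covered scaling, background, filter, test, slide, replicate block and each array left out. Promoter sequences were not used here.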

Additional observations from a re-analysis of the deposited data

Results flagged for a closer look

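A pair of shade-response genes and 1 dirigent gene drew attention because their fitted changes under ABA had opposite signs in WT and OE. The ABA and water groups did not overlap in either genotype. In OE no change was called (limma adjusted p = 0.384 for HB4 and 0.399 for PIL1), and DIR5 was at background. HB4 had a log2 fold change of -3.75 in WT and 0.95 in OE, with -5.29 and -5.26 under ABA against -1.82 and -1.23 in water in WT, and -4.10 and -5.36 under ABA against -5.93 and -5.43 in water in OE. The test of the difference gave -4.70 (limma unadjusted p = 0.000290, adjusted p = 0.126). PIL1 had -3.08 in WT and 0.59 in OE, with -3.19 and -3.74 under ABA against -0.04 and -0.73 in water in WT, and -3.81 and -4.0 under ABA against -4.41 and -4.59 in water in OE (difference -3.68, adjusted p = 0.110). DIR5 had a fitted -7.88 in WT, where 1 ABA array was not above background. In OE it read -7.21 and -8.24 under ABA against -8.50 and -8.54 in water, none of them above background, so that no change is given there. Neither the HB4 nor the PIL1 difference passed the adjusted threshold. In each case the WT water arrays were the high ones, and these 2 arrays shared a slide with no other array of the series.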

How the results depend on the processing

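In WT, 251 probes were called, 172 higher and 79 lower under ABA, with 6 effectors and no interaction called. Fitting only the 4 WT arrays called 0 in limma (1812 at unadjusted p), with 0 effectors, and the methods' t-test called 0 after adjustment and 420 before it, 260 higher and 160 lower. These tests lose the spread shared with the OE arrays. Normexp called 28 (22 and 6) with 2 effectors, no filter on dim probes 88 (63 and 25), and a filter asking for signal on all 8 arrays 2 effectors, of fewer tested. Slide as a random block, at an estimated correlation of -0.163, called 527 (327 and 200) with 10 effectors. Unadjusted p in the main test called 1813 (1049 and 764), 16 effectors and 2027 interactions. The interaction was called for 6 probes with quantile normalisation, 9 in the authors' log2 table and 6 with cyclic loess, the last added after seeing the data. Scaling by the array median made 109 of 233 calls lower, so 53.2% were higher, against 68.5%, and moved the median over all probes to -0.20, against -0.04. The log2 fold change of COR15A, never called, turned to -0.052 there.

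The replicate block called 83 (60 and 23), with 33 of 70 called named results kept, and changed no direction among them. Crossing the WT replicate numbers in the block, added after seeing the data, called 171 (111 and 60).

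Leaving out 1 array at a time, with the lone array assumed to vary like the other groups, gave 47 to 363 calls, 34 to 187 higher, 13 to 176 lower, 2 to 9 effectors and 0 to 101 interactions. The fewest calls came without the first (47) or second (56) OE water array, then without the OE ABA arrays (125 and 124) and the WT ABA arrays (151 and 146), and the most without the first (299) or second (363) WT water array. Without the second WT water array 115 of the 251 calls were kept. Receptor calls ran between 1 and 3, bZIP and AFP calls between 1 and 5, and NAC, MYB and HD-ZIP calls between 2 and 3. The log2 fold change ran between -0.91 and 1.11 for COR15A and between -0.25 and 1.51 for KIN2, neither ever called. Of the 70 named results called, 19 were kept with any 1 array left out, and 11 of these were lost only with the WT arrays alone or the adjusted t-test, among them AFP1, LBD1, BBX30, ABI2, HAB1, TSPO, BT2 and AT5G62360. No named call changed sign under any of the 25 alternatives. Under normexp 20 of the 70 were kept, and the cause of these changes was not tested.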

Other observations

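Further families were looked at after the values had been seen, so their counts are a description. Of all genes 0.58% were higher and 0.262% lower. Of 10 genes whose symbol marks them as LEA proteins, which protect dried cells, 4 were higher under ABA in WT and none was lower. ECP63, above background on neither water array, was at least 8.35-fold higher under ABA. Of 80 MYB genes tested 4 were higher and none lower. MYB121, MYB305 and MYB79, above background on neither water array, were at least 14.8-, 7.90- and 4.89-fold higher, and MYB2 rose by 1.51 on the log2 scale. Of 27 nuclear factor Y subunit genes NF-YB5 (at least 13.1-fold) and NF-YA5 (log2 fold change 1.34) were higher. B-box factors gave 2 higher of 26, BBX30 (3.90) and BBX31 (2.93), both microproteins of light signalling. Among 19 CIPK kinase genes, whose products read calcium through CBL proteins, CIPK5 was higher (2.43) and CIPK3 lower (-1.04). The LBD family was split, with LBD1 higher (3.98) and LBD38 (-2.44) and LBD22 (at least 3.48-fold) lower of 20. With 1 array left out, the calls ran between 1 and 3 for the LEA list, 0 and 2 for MYB genes, 0 and 1 for nuclear factor Y, 0 and 1 in each direction for CIPK genes, and 1 and 2 higher with 1 lower for the LBD family, and B-box factors had 1. MYB calls were 0 without either OE water array.

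Single called genes outside the lists, also chosen after their values were seen, included ACS2, which makes the precursor of ethylene (3.1), SUS3, a sucrose synthase (2.05), GBF3, a G-box factor (2.02), and PHOT2, a blue-light receptor above background on only 1 water array (2.1), all higher under ABA. NIA2, a nitrate reductase (-1.18), ASN2, an asparagine synthetase (-1.29), and PHYB, the red-light receptor (-1.22), were lower.

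A few called genes lay close together in the TAIR10.1 order of protein-coding genes. TSPO and AT2G47780 were neighbours, with NF-YB5 3 genes further on, and all were higher under ABA. PP2CA and AT3G11420 were neighbours and both higher, as were CPL3 (2.77) and GT72B1 (1.95), with GBF2 (1.4) 5 genes further. The spot of GT72B1 on the first water array had been dropped as an outlier. Opposite changes also occurred: HB4 lay 4 genes from AT2G44940, and AT2G41150 lay 4 genes from AT2G41190. In each of these pairs the first gene was lower and the second higher. Whether called genes lay close together more often than other genes was not tested.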
